A study of Mus musculus with 6 samples.

Results

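The small nuclear RNA (snRNA) genes described here are the gene copies that the deposited gene tables name exactly U1, U2, U4, U5, U6, U7, U11 or U12, each Ensembl identifier counted as 1 copy. The members were selected on measured values, namely the ChIP and input reads by which the authors called a region near them, so their presence in a table is a description and not a finding. In all, 104 of the 3403 gene identifiers in the 3 tables met the rule: 47 U6 copies and 57 copies of the other classes (31 U1, 9 U2, 3 U4, 6 U5, 7 U7 and 1 U11), with no U12 copy. The Spt16 table held 100 of them among 3203 identifiers, the Oct4 list 12 of 633 and the Jmjd1c list 1 of 65. Annotated copies with no region nearby do not appear in such tables and were not analysed here.

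The series used ChIP-seq, which sequences the DNA pulled down with an antibody, to map proteins on chromatin. The cells were C57BL/6 mouse embryonic stem cells that carry a tetracycline-inducible Oct4 gene. Cells were differentiated with retinoic acid and given doxycycline, which switches the Oct4 gene on, or PBS. The libraries used here came from 10 h after doxycycline and were made with antibodies against Oct4 (the pluripotency transcription factor), Spt16 (part of FACT, which takes nucleosomes apart and rebuilds them) or Jmjd1c (of the Jumonji demethylase family), plus input chromatin, with 1 library for each. RNA was not measured in these libraries, so neither the cell type nor the activity of any copy could be checked against transcripts.

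Depth was greatest in the Spt16 library, at 36669596 reads, followed by Jmjd1c with 26736842, Oct4 with 15543450 and the input with 14592994. The authors called 265 Oct4, 1253 Spt16 and 24 Jmjd1c regions against that single input. With 1 library for each antibody there is no replicate spread, and each interval below covers counting error only. Values are whole reads in the best window of a region, or RPM, the reads for each 1000000 reads of the library, and folds are the ratio of ChIP RPM to input RPM. Where the input had 0 reads, the fold is a lower bound against a floor of 3 input reads (0.206 RPM).

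snRNAs are the RNA cores of the particles that splice pre-mRNA. U1 and U2 recognise the ends of most introns, U4, U5 and U6 join them as a tri-snRNP, U11 and U12 take the places of U1 and U2 in the minor spliceosome, and U7 directs the cut that ends replication-dependent histone mRNAs. Most of these genes are short transcription units read by RNA polymerase II from promoters bound by the SNAPc complex, and the Integrator complex cuts the new transcript just past its coding part while the polymerase runs on. U6 is the exception: it uses a SNAPc promoter too, but RNA polymerase III transcribes it and stops at a run of T. Mammalian genomes also hold many snRNA pseudogenes, mostly of U1, U6 and U7, which the symbols in the tables do not set apart. No sequence of these copies is printed, since the promoter table used here holds none of them.

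At part of the listed polymerase II snRNA copies, a Spt16 region lay just past the 3' end of the gene. Of the 56 U1, U2, U4, U5, U7 and U11 copies in the Spt16 table, 26 had the middle of their nearest region within 1 kb of the gene start (46.4%). Of all identifiers in that table, 5.93% had one, and of those with a region within 50 kb, as all these copies have, 7.13% did. The region was on the downstream side of the start at 25 of these 26 copies, and at 24 it lay wholly past the annotated 3' end of the snRNA. Among all 190 identifiers with a Spt16 region within 1 kb, 59.5% had it downstream and 24.7% had it wholly past the gene end. Among the 163 of those that are not snRNA copies of the rule, the shares were 53.4% and 14.1%. The share past the gene end depends on gene length, which was not matched. A region within 1 kb downstream can lie past a gene as short as these snRNAs (62 to 191 bp) and would still be inside a longer one. No test accompanies these counts, because the copies were selected for having a region nearby. With each copy's highest-scoring listed region in place of its nearest one, 12 copies had it within 1 kb downstream, and with a limit of 500 bp the nearest region was close enough at 5 copies.

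At the 25 downstream copies the middle of the region was 260 to 967 bp after the start, with a median of 630 bp and quartiles of 548 and 740 bp. The 1 kb limit that defines these copies also bounds this range. At the 87 other identifiers with a region within 1 kb downstream, it was 8 to 998 bp after the start, with a median of 518 bp and quartiles of 330 and 712 bp. The transcripts of these copies are 62 to 191 bp long, so the 5' edge of the region, at a median of 432 bp from the start, was a median of 269 bp past the end of the snRNA. Coverage along the gene was counted with the nearest region of each copy only. The position covered at most copies was 620 bp after the start, where 23 of the 26 copies were covered, and at least 20 were covered from 580 to 660 bp. At the start itself 1 copy was covered, a U4 gene described below, and at 100 and 200 bp before the start it was again 1 copy. Coverage here means called regions, so a start outside them was not shown to be free of Spt16.

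**Figure D1:**
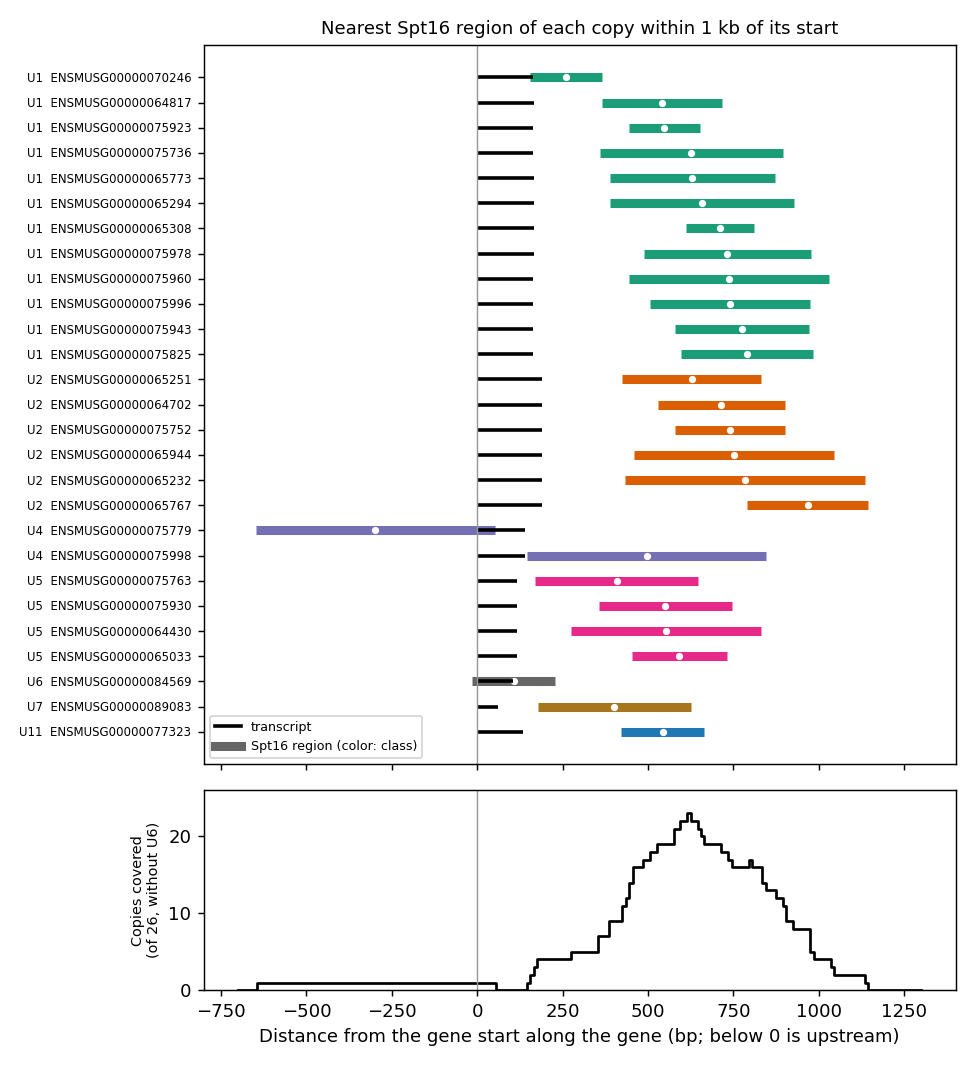
Upper panel: the nearest Spt16 region (colored bar, white dot at its middle) of each snRNA copy within 1 kb, in bp along the gene from the start, with the transcript as a black bar. Lower panel: number of the 26 polymerase II copies covered at each position by their nearest region, which peaks at 23 copies 620 bp past the start. Of all the regions drawn, only that of U6 covers a whole transcript.

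The 26 copies were not independent places. They fell in 12 loci on 8 chromosomes when copies of a class with gaps of at most 100 kb were counted as 1 locus, and the 25 downstream copies also covered 12 loci. Of these loci, 7 held several listed copies and 5 held a single one. Copies of a class can be near identical in sequence, which could not be checked here for lack of sequences. The sources used here do not say how reads matching several copies were placed, or whether they were kept. The split of reads between copies of a cluster is therefore uncertain, and its part in the placement was not tested. At the 5 loci with a single listed copy the region was downstream, at 401 bp for U7, 544 bp for U11, 592 bp for U5 on chromosome 1, and 740 and 783 bp for U2 on chromosomes 1 and 12. These loci do not settle how reads were placed, because a single listed copy can still resemble copies elsewhere in the genome. The 26 copies were selected for a region within 1 kb, so which gene lies closest to it is a description only. At each of them the closest listed gene to the region was an snRNA copy of the rule. At 2 of them another gene start also lay within 1 kb of the region, and both are at loci with a single listed copy. These starts were Grcc10 at 489 bp for the U7 copy and Refbp2 at 907 bp for the chromosome 1 U5 copy.

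U1, whose RNA pairs with the start of introns, had the most copies near a region: 12 of 31, all with the region downstream, 260 to 790 bp from the start. They came from 3 clusters. On chromosome 3 (starts from 96132347 to 96292651, mm9) 5 of 8 listed copies had a region within 1 kb, on chromosome 12 (55797768 to 55839608) 6 of 7 did, and on chromosome 11 (87236368 and 87240217) 1 of 2 did. Within the clusters on chromosomes 3 and 12 the copies read in opposite directions, and the near regions followed the direction of the gene. At ENSMUSG00000065294, on the plus strand of chromosome 3, the region lay 658 bp after the start. At its neighbor ENSMUSG00000065773, on the minus strand, it lay 630 bp after the start. Both listed copies of the chromosome 11 cluster are on the plus strand.

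ENSMUSG00000065294 also had the strongest of the near U1 regions. It held 88 Spt16 reads against 2 input reads, a 17.5-fold excess (95% counting interval 4.71 to 146.8). The same region was the nearest one listed for another U1 copy, ENSMUSG00000065020, at 28371 bp. At ENSMUSG00000065773 there were 62 Spt16 reads against 0 input reads, at least 8.22-fold over the floor. The 12 near U1 regions ranged from 26 to 88 reads, with a median of 43.5, and 2 of them stood at 26 reads, the lowest number of any Spt16 region in the list. One of these was the region closest to a U1 start, 260 bp after that of ENSMUSG00000070246 on chromosome 11, which reached from 155 to 365 bp and so touched the end of the transcript. This copy had a further region, 698 bp after its start, with 34 reads. Its neighbor ENSMUSG00000070194, named after its values were seen, fell just outside the limit with a region at 1023 bp.

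U2, whose RNA pairs with the branch point, showed the same side and the longest offsets. A region lay within 1 kb at 6 of 9 copies, always downstream and wholly past the transcript, 628 to 967 bp from the start. Of these copies, 4 belong to a cluster on chromosome 11 (101466163 to 101519551). The highest score was at the single copy on chromosome 12, ENSMUSG00000065232, where 56 Spt16 reads faced 0 input reads (at least 7.43-fold) in a region from 432 to 1135 bp after the start. In the chromosome 11 cluster, ENSMUSG00000064702 had 48 reads at 715 bp and ENSMUSG00000065251, on the other strand, had 46 reads at 628 bp, each against 0 input reads (lower bounds of 6.37-fold and 6.10-fold). The U2 copy on chromosome 1, ENSMUSG00000075752, had 39 Spt16 reads against 1 input read at 740 bp (15.5-fold, 2.63 to 628.5). It had a stronger Spt16 region farther away, at 2975 bp, with 57 reads against 0 input reads, and that farther region is the one the Oct4 table also lists.

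U4, the partner that holds U6 inactive before splicing, gave the strongest near region of the whole group and the single upstream call. A pair of U4 copies lies head to tail on chromosome 5 (starts at 115939467 and 115940262, plus strand). One region of 699 bp with 109 Spt16 reads against 2 input reads (21.7-fold, 5.86 to 181.4) filled the space between them. It began 147 bp after the start of ENSMUSG00000075998, past that transcript's end, and ran to 51 bp after the start of ENSMUSG00000075779. For the second copy it therefore counts as upstream, with its middle 299 bp before the start. That second copy also had a region 560 bp downstream, with 29 reads, so each U4 copy of the pair had Spt16 past its 3' end. The remaining U4 copy, ENSMUSG00000084675 on chromosome 19, had its nearest region 41438 bp away (43 reads against 1).

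U5, which holds the exons in the spliceosome, had a region within 1 kb at 4 of 6 copies, all downstream and past the transcript, at 408, 551, 552 and 592 bp. The strongest was at ENSMUSG00000064430 on chromosome 4, with 75 Spt16 reads against 0 input reads (at least 9.95-fold). The other U5 copies, ENSMUSG00000070228 and ENSMUSG00000070237, follow on the same chromosome and had this same region as their nearest, 12034 and 20350 bp upstream of their starts. Of the pair on chromosome 9, ENSMUSG00000075763 had the closest region, with 49 reads against 0 input reads.

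U11, the minor-spliceosome counterpart of U1, appeared as 1 copy, ENSMUSG00000077323 on chromosome 4 (start at 131826127, minus strand). Its region lay 422 to 665 bp after the start and held 32 Spt16 reads against 0 input reads (at least 4.24-fold). RefSeq (GRCm38.p6) names a gene Rnu11 between Gmeb1 and Taf12, and both were listed beside this region. For U7, the nearest region of ENSMUSG00000089083 on chromosome 6 lay 401 bp after the start with 37 reads against 0 input reads (at least 4.91-fold), while the other 5 U7 copies in the Spt16 table had none closer than 4140 bp. RefSeq places Rnu7 between Grcc10 and Atn1, both of which were listed for the region at ENSMUSG00000089083. The start of Grcc10 was 489 bp from the middle of that region, so a protein-coding gene start shares it.

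Of 44 U6 copies listed for Spt16, 1 had a region within 1 kb (2.27%), a count too small to set apart from the 7.13% of all identifiers with a region within 50 kb. It became 2 when distance was taken to the nearest edge and 7 with a limit of 5 kb. Their median distance was 25335 bp (range 107 to 48662 bp), and 23 of the 44 lay more than 25 kb from the nearest region (52.3%), against 42.4% of all identifiers with a region within 50 kb. Beyond 1 kb, 26 U6 copies had the nearest region upstream and 17 downstream, while 59.5% of all 3013 identifiers beyond 1 kb had it downstream. That wider set includes identifiers with no region within 50 kb and genes of other lengths, so the shares are not matched. The 1 near U6 copy was ENSMUSG00000084569 on chromosome 10 (start at 62356261). Its region ran from 15 bp before the start to 228 bp after it and held 32 reads against 0 input reads (at least 4.24-fold). It covered the whole transcript, unlike the regions at the other classes, and was 5711 bp from the start of Tet1, a 5-methylcytosine oxidase.

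**Figure D2:**
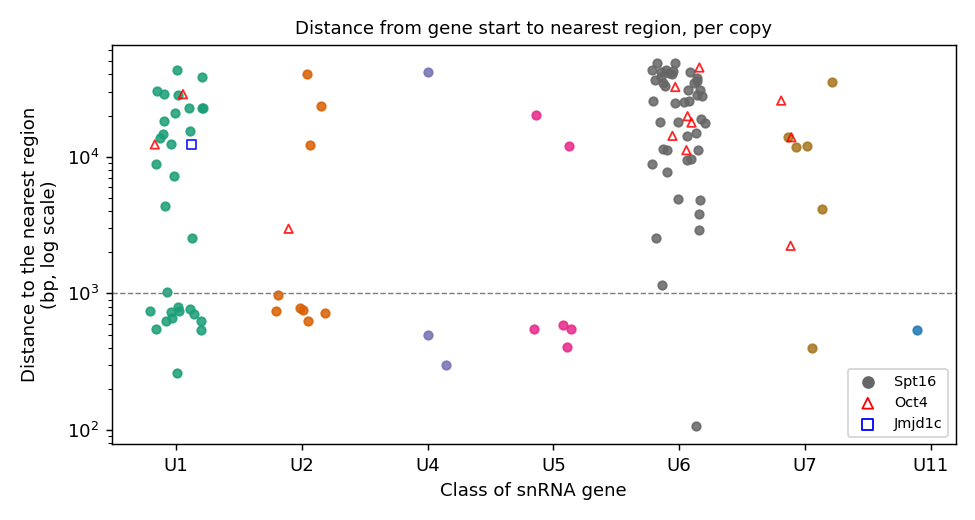
Distance in bp (log scale) from the gene start to the nearest region for each copy by class, with filled circles for Spt16, red triangles for Oct4 and a blue square for Jmjd1c. The dashed line marks 1 kb: 26 Spt16 copies outside U6 and 1 U6 copy lie under it, and no Oct4 or Jmjd1c point does.

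The other 30 polymerase II copies lay beyond 1 kb, with a median distance of 16792 bp, beside 25411 bp for the 43 U6 copies beyond 1 kb. Of the 30, 17 had the region downstream and 13 upstream. For 7 of the 30 the nearest region was the near region of another copy, and 8 lay in a locus that held a near copy. The remaining 22 lay in 21 loci without one. In some classes the annotated length differed between near and far copies. Near U1 copies were 164 to 166 bp long and far ones 112 to 171 bp. Near U2 copies were 191 bp, and far ones 91, 122 and 191 bp. The near U4 copies were 141 bp and the far one 123 bp. U5 copies were 116 bp in both sets, and the near U7 copy was 62 bp beside 60 to 65 bp for far ones. What length says about pseudogenes among these copies was not tested. Among U7 copies beyond 1 kb, ENSMUSG00000087746 on chromosome 18 had the highest-scoring nearest region, 13955 bp downstream with 49 reads against 1 (19.5-fold, 3.34 to 785.7). A pair, ENSMUSG00000089156 and ENSMUSG00000088665, shared 1 region of 33 reads at 11736 and 11923 bp.

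Spt16 levels of near and far regions overlapped. The 25 near regions of polymerase II copies had a median of 1.17 RPM (0.709 to 2.97). The nearest regions of copies beyond 1 kb numbered 27, of which 6 were themselves the near region of another copy. The remaining 21 had a median of 0.954 RPM (0.709 to 3.93), and with the 6 included the median was 1.06 RPM. The 42 far U6 regions had a median of 1.05 RPM (26 to 110 reads), and all 1253 Spt16 regions had a median of 1.01 RPM. The strongest U6-linked regions were far from their genes. ENSMUSG00000087859 on chromosome 1 had 107 reads against 4 at 9599 bp, ENSMUSG00000088511 on chromosome 3 had 110 against 5 at 18943 bp (827 bp from the start of Acp6), and ENSMUSG00000064422 on chromosome 2 had 75 against 0 at 11325 bp. In the near set, 17 of 25 regions had 0 input reads and none had more than 2, while 18 of 25 stood in the higher-scoring part of the list, defined as the upper 50% by the authors' score. Near regions were a median of 406 bp long and the 21 far ones of polymerase II copies 259 bp.

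**Figure D3:**
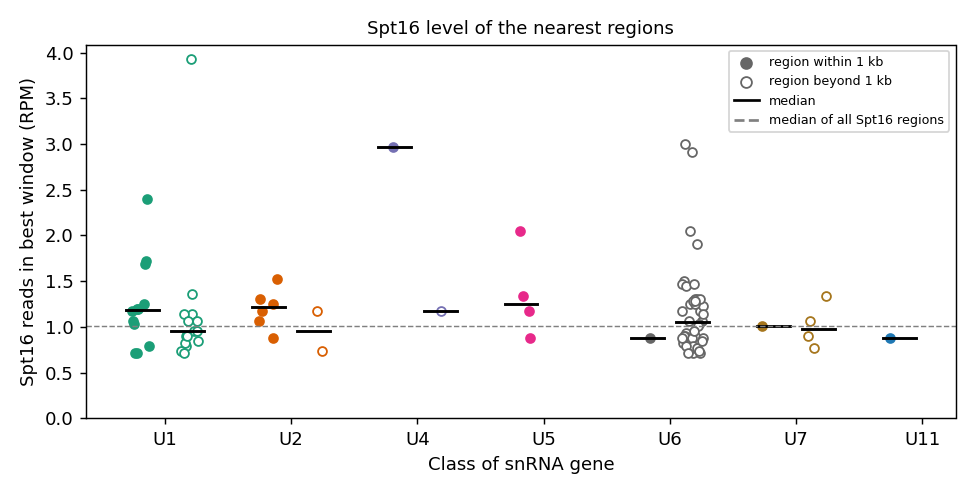
Spt16 reads in the best window (RPM) of the nearest regions, each region once per class, within 1 kb (filled) and beyond 1 kb (open, without those that are the near region of another copy), with class medians as black bars and the median of all Spt16 regions, 1.01 RPM, as a dashed line. Near and far regions overlap in U1 and U2; the highest point, 3.93 RPM, is a far U1 region.

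None of the 12 copies in the Oct4 table had a region within 1 kb. With 2.69% of all identifiers there having one (3.39% of those with a region within 50 kb), a count of 0 among 12 does not set these copies apart. The nearest were 2231 bp upstream of a U7 copy on chromosome 15, ENSMUSG00000088486, with 16 reads, and 2974 bp downstream of the chromosome 1 U2 copy, with 16 reads. The median distance was 16002 bp, and 6 of the 12 were U6 copies. None of the 25 near Spt16 regions overlapped an Oct4 or a Jmjd1c region, where 13.4% of all Spt16 regions overlapped an Oct4 region and 1.12% a Jmjd1c region. Depth limits what this shows. The weakest Oct4 region in the list had 15 reads (0.965 RPM), and an Oct4 signal weaker than that would not appear in the list. In Spt16 RPM, 19 of the 25 near regions reached that value. Their Oct4 signal cannot be read from this, because the antibodies differ. For Jmjd1c the weakest listed region had 23 reads (0.860 RPM). Per the deposited table, 10 regions also found in uninduced cells had been removed from the Oct4 list.

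The copies in the Oct4 table had 13 Oct4 regions, of which 8 overlapped a Spt16 region (61.5%, 95% Clopper-Pearson interval 31.6 to 86.1). That share is close to the 63.4% of all Oct4 regions. In the other direction, 8 of the 107 Spt16 regions listed for snRNA copies overlapped an Oct4 region (7.48%, 3.28 to 14.2), beside 13.4% of all. The strongest shared region was 12298 bp upstream of a U1 copy, ENSMUSG00000087812 on chromosome 14 (region at 86795823 to 86796237), the single snRNA copy in all 3 tables. Spt16 had 144 reads there (3.93 RPM, at least 19.1-fold), Oct4 had 35 (2.25 RPM) and Jmjd1c 41 (1.53 RPM, at least 7.46-fold). The input had 0 reads in each list. The antibodies differ, so these RPM values do not order the proteins. In the authors' order the region carried rank 8 in each list. This was the one Jmjd1c region beside an snRNA copy, and its distance of 12320 bp left 0 copies within 1 kb, against 1.54% of all identifiers in the Jmjd1c list.

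At the U7 copy of chromosome 15, a region 5628 bp upstream of the start (55099612 to 55099959) held 35 Oct4 reads and 124 Spt16 reads, again against 0 input reads. The weaker Oct4 region between it and the gene overlapped no Spt16 region, and the Spt16 region closest to this gene was at 4140 bp, with 28 reads. At the U6 copy of chromosome 2 (ENSMUSG00000064422), whose shared region lay 11167 bp downstream, the values were 30 Oct4 and 75 Spt16 reads, and the start of Dido1 was closer, at 769 bp. At the U1 copy of chromosome 18 (ENSMUSG00000065369), 28697 bp from its region, they were 27 and 35, and the start of Ss18 was closer, at 6287 bp. These are distant neighbors: at none of the 8 shared regions was the middle of the Oct4 region closer than 2974 bp to the snRNA start.

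The ratio of Spt16 RPM to Oct4 RPM had a median of 1.29 over the 8 shared regions. It was largest beside the chromosome 14 U1 copy (1.74, 95% counting interval 1.20 to 2.60) and smallest beside the chromosome 18 U1 copy (0.549, 0.323 to 0.944). The libraries come from different antibodies, so the ratio orders these regions and does not say which protein was more abundant at any of them. Each region had to pass the threshold in both lists, which limits how far the ratio can fall or rise. The 5 Oct4 regions without a Spt16 region held 15 to 21 reads. For U6 they lay 32370 bp from ENSMUSG00000084505 (chromosome 1), and 44972 and 19795 bp from ENSMUSG00000075864 and ENSMUSG00000087761 (chromosome 8). Ralb started closer to the first of these regions, at 6953 bp, and Itgb1 to the next, at 10315 bp. For U7 they lay 2231 bp from ENSMUSG00000088486 (chromosome 15) and 25752 bp from ENSMUSG00000087882 (chromosome 18). The other shared regions held 15 to 25 Oct4 reads and 45 to 49 Spt16 reads. They lay 13877 bp from the U7 copy ENSMUSG00000087746, and 14221 and 17783 bp from the U6 copies ENSMUSG00000064680 and ENSMUSG00000089551. Slc9a9 started closer to the last of them, at 8107 bp.

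**Figure D4:**
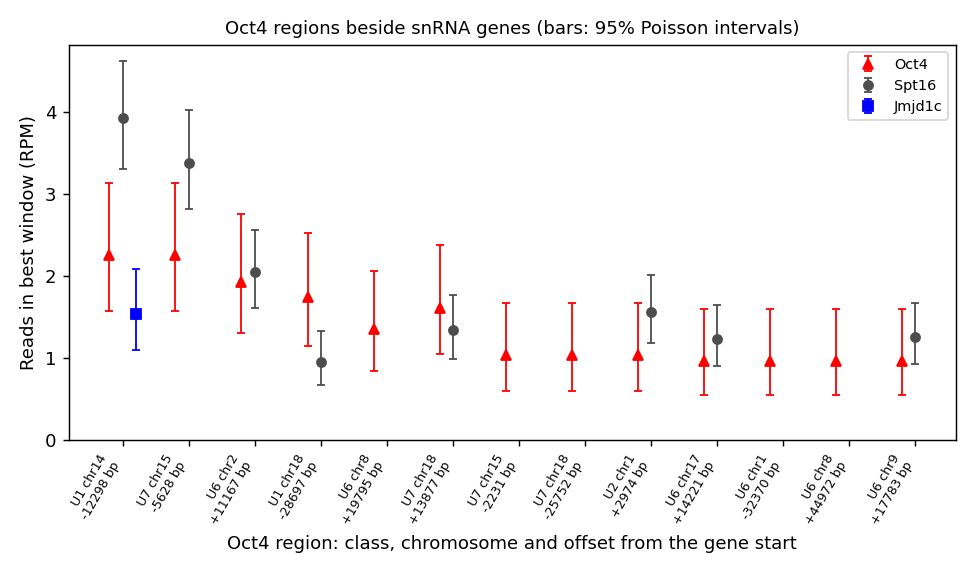
Reads in the best window (RPM) at the 13 Oct4 regions listed beside snRNA copies, ordered by Oct4 score and marked with class, chromosome and offset from the gene start, with 95% Poisson counting intervals. Spt16 has a region at 8 of the 13 and Jmjd1c at 1, and the first U1 and U7 regions have the highest Spt16 values, 3.93 and 3.38 RPM.

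The protein genes of the same pathway had Spt16 regions at about the share of all protein-coding genes. Of 95 genes for Sm and LSm proteins, particle-specific proteins, assembly factors, Integrator, snRNA transcription factors and the U7 particle, 6 had a Spt16 region within 50 kb (6.32%), beside 7.15% of 21900 protein-coding genes. None had an Oct4 region (1.41% of protein-coding genes did) or a Jmjd1c region (0.132%). By role, 2 of 25 particle-specific protein genes, 2 of 17 assembly genes, 1 of 15 transcription genes and 1 of 15 Sm and LSm genes were marked, and 0 of 14 Integrator and 0 of 9 U7 particle and histone 3' end genes.

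In 2 cases the region was at the promoter or first part of the gene. Ell, which encodes an elongation factor of the complex that aids snRNA transcription, had a region 423 bp upstream with 70 Spt16 reads against 4 input reads (6.96-fold). Zcrb1, which encodes a protein of the U11/U12 particle, had one 449 bp downstream with 33 reads against 0 (at least 4.38-fold). The other 4 were farther away: Clns1a, an Sm-protein assembly factor, at 22611 bp, Lsm2, a ring protein of U6, at 32017 bp, Prpf31, a tri-snRNP protein, at 43575 bp, and Gemin2, of the SMN complex, at 27725 bp. The region listed for Gemin2 is the one behind the chromosome 12 U2 copy.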

How the data were processed

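ChIP-seq reads were processed with CASAVA 1.4 and Bowtie (version not given) on mm9, per the submitters' processing notes; the region caller and the handling of reads that match several places are not given in the sources used here. Per the file headers, the authors kept regions with a Q value score of at least 13 and a log2 ratio of ChIP to input of at least 1. The deposited whole-number read counts of the best window of each region, for ChIP and input, were divided by the library totals in the file headers to give RPM. The deposited score ranked regions within a list only.

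Each distance runs between a region's midpoint and the start of the gene in the deposited gene tables, signed along the gene. A region within 1 kb was called near, all snRNA copies had a region within 50 kb, pathway genes were counted up to 50 kb, and regions that shared at least 1 bp were called overlapping. Intervals are 95% exact Poisson (RPM), exact binomial (folds and ratios) or Clopper-Pearson (shares). The formulas for signed distance and region edges and the exact binomial interval were checked on simulated data, and the other steps were not. The scripts used Python 3.11.15, pandas 2.3.3, scipy 1.17.1 and matplotlib 3.10.9. With 1 library per group no test between groups was made.

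Copies named are those with regions in at least 2 tables, those near in the Oct4 or Jmjd1c table, the 3 of highest score and the closest of each class and table, all copies of classes with at most 5 copies, and pathway genes with a region; other copies were named after their values were seen. The members, lists and comparisons were chosen with earlier results of these data known. The 0 h libraries were not used here.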

Additional observations from a re-analysis of the deposited data

How the results depend on the processing

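Alternatives were a limit of 500 bp or 5 kb, distance to the nearest edge, the upper 50% of regions by score, each copy's highest-scoring region, reads per kb and overlap by region middles; counting loci once and leaving out regions with another gene start within 1 kb were chosen after seeing the data. Of the recomputed counts and medians, 54 stayed within 1.5 times the count or the 95% order-statistic interval of the median, 15 moved and 1 reversed. The reversed value was the ratio of median Spt16 level of polymerase II classes to U6, 1.05 as RPM and 0.949 per kb of region. The value per kb divides the reads of the best window by the length of the whole region. Reads and length thus cover different stretches, and longer regions get lower values. The 26 polymerase II copies near a Spt16 region became 5 at 500 bp and 12 with loci counted once. The 25 of them with a downstream region became 12 with the highest-scoring region and 12 with loci counted once, and the 1 upstream copy became 3 at 5 kb. With the highest-scoring region the median distance of these classes rose from 3345.5 to 12989.5 bp and the median level from 1.10 to 1.31 RPM. With copies that share a region counted once the median distance fell to 786.5 bp, which lies inside the wide interval of the median. The 1 near U6 copy became 7 at 5 kb, 2 by the nearest edge and 0 in the upper 50% by score. The Oct4 count of 0 became 2 at 5 kb, the Jmjd1c distance of 12320 bp became 12138 bp by the edge, the 8 regions shared by Oct4 and Spt16 became 5 in each direction in the upper 50%, and the 6 pathway genes became 2 within 5 kb. The cause was not tested. Of single copies, 33 values stayed and 5 moved, each to another region of the same copy. No paired analysis was possible because each group had 1 library. A single input of 14592994 reads, with 0 reads in 17 of the 25 near regions, limits the folds.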

Other observations

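Other small RNA genes in the Spt16 table, chosen after their values were seen, are given as values. U3, the nucleolar RNA that guides early ribosomal RNA cutting and is read by polymerase II in vertebrates, had a region within 1 kb at 4 of 9 copies, downstream of the start at 3 of them. Snord118, which encodes U8, a further nucleolar RNA, had 1 copy with a region 443 bp downstream. The next copies are named for RNAs read by polymerase III. Their symbols do not tell transcribed copies from pseudogenes either, and RNA was not measured, so the counts do not describe active genes. For 7SK, the RNA that holds the elongation factor P-TEFb inactive, 0 of 21 copies had a region within 1 kb (closest 1478 bp, median 25239 bp). For 5S ribosomal RNA the count was 0 of 11 (closest 1799 bp, median 19237 bp), and the 1 copy of U6atac, the minor-spliceosome form of U6, was 19078 bp away. Y RNA, also read by polymerase III, had a region within 1 kb at 1 of 2 copies, 670 bp upstream of the start. Among all identifiers listed for Spt16, 5.93% had a region within 1 kb.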
